A study of Mus musculus with 35 samples.

Results

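*Sox4*, *Sox11* and *Sox12* are the 3 genes of the SoxC family, and they were followed here through the E14.5 mouse brain both inside and outside the neural lineage. They were chosen by their measured levels, the normalized counts and transcript counts in the sorted populations, so those levels are a description and no test of a SoxC gene between populations was run. They are 3 of the 53465 genes in the bulk table. Bulk RNA-seq was made from 4 populations sorted by FACS (neural, mural, endothelial and microglial), with 3 libraries each, whose titles carry the same 3 numbers, taken here as the 3 brains. Values of 3 libraries are given below from the lowest to the highest of these numbers. The scRNA-seq covered cells sorted from wild-type brain on plates 1 to 3 and cells of brains labelled Mof knockout on plates 4 to 6. All samples came from brain at E14.5. The knockout allele and any driver of it are not given in the sources used here, and neither is the brain that each plate came from. In the bulk libraries the neural RNA went through the Illumina TruSeq kit, whereas RNA of the 3 other populations went through SMART-Seq v4 and Nextera XT, so that population and library kit cannot be told apart in any bulk difference between neural cells and another population. Likewise, fewer expressing cells and less RNA per cell cannot be told apart in bulk RNA.

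SoxC proteins are transcription factors that bind DNA through a conserved HMG box and activate target genes through a domain at the C terminus. In the developing brain they are best known for switching on the program of young neurons, including genes of the neuronal cytoskeleton such as *Tubb3*, after proneural factors have committed a progenitor. SOX4 and SOX11 also act in the mesenchyme of many organs and in the developing heart, and SOX12 is regarded as the weakest activator of the family. Microglia derive from the yolk sac, and brain endothelial cells from mesoderm, so both lie outside the neural lineage, and mural cells (pericytes and smooth muscle) wrap the vessels.

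The 3 genes lie on different chromosomes and are all transcribed from the minus strand (GRCm38, GENCODE vM21). *Sox4* (ENSMUSG00000076431) lies at chr13:28948919-28953713 and *Sox11* (ENSMUSG00000063632) at chr12:27334264-27342574, each as a single exon. *Sox12* (ENSMUSG00000051817) lies at chr2:152393611-152398063 and has 2 annotated transcripts. Their exons span 4795, 8311 and 4453 bases, respectively, which matters for any comparison of levels between them. A gene on the opposite strand, *Gm26735*, overlaps *Sox4*. It had 160 ± 55.0 normalized counts in neural cells (SD, n = 3) and at most 5.64 in any other library, against 34692 or more for *Sox4* in neural cells. How reads in the overlap were assigned was not tested.

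The genes are most alike in the HMG box, where reads could in principle be assigned to the wrong member. To show how far they can be told apart, the most conserved 90 coding bases of the HMG box are given below on the coding strand, with bases that differ from *Sox4* in capitals. The stretch lies in the coding exon at chr13:28952752-28952841 for *Sox4*, chr12:27342169-27342258 for *Sox11* and chr2:152397486-152397575 for *Sox12*.
Sox4: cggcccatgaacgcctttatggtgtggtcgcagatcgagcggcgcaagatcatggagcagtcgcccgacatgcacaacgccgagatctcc
Sox11: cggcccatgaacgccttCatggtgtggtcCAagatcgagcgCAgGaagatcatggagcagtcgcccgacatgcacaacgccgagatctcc
Sox12: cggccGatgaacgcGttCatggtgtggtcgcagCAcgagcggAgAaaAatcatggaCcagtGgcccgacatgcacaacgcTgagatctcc
*Sox11* differed from *Sox4* at 6 of these 90 bases and *Sox12* at 11. The longest run of identical bases between whole transcripts was 48 bases for *Sox4* and *Sox11*, 33 for *Sox4* and *Sox12* and 20 for *Sox11* and *Sox12*, and each lay in coding sequence.

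The promoters, taken from RefSeq (GRCm38.p6) from base 250 to base 21 before the annotated start, are shown because the 3 genes share their highest level in neural cells. Capitals mark CCAAT on either strand, the motif bound by NF-Y.
Sox4: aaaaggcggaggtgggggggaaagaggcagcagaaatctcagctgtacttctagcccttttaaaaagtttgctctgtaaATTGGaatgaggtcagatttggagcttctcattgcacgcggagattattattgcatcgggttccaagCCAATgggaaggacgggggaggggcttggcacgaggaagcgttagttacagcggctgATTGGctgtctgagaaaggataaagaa
Sox11: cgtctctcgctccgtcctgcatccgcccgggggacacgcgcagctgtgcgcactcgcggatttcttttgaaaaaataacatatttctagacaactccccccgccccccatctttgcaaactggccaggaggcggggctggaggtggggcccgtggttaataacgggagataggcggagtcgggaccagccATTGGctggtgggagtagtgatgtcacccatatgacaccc
Sox12: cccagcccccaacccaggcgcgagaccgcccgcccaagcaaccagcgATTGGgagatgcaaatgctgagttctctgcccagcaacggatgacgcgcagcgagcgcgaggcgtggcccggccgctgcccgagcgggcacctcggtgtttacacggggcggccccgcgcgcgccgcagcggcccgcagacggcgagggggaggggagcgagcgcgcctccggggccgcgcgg
These windows lie at chr13:28953720-28953949, chr12:27342739-27342968 and chr2:152398067-152398296. CCAAT occurred 3 times in the *Sox4* window and 1 time in each of the others, and 32.2% of all 32851 promoter windows held it. The GC box GGGCGG, searched on both strands, was absent from *Sox4* but occurred 2 times in *Sox11* and 3 times in *Sox12* (29.8% of all windows). None of the windows held TATAAA on either strand (11.8% of all windows). The GC content was 49.1% for *Sox4*, 59.6% for *Sox11* and 76.1% for *Sox12*.

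Each bulk library held between 17638358 and 98414914 reads on genes. The sorted populations carried their own markers. The summed level of 10 mural markers was 736770 to 792535 normalized counts in mural libraries and at most 7492 elsewhere, that of 10 endothelial markers was 224490 to 261386 against at most 11576, and that of 10 microglia markers was 307202 to 343950 against at most 135. Neuron markers summed to 145276 to 156857 in neural libraries, and none of the 10 was at 0 in any other population, where their sum lay between 3319 and 9255. Of the markers of further cell types, 5 fibroblast markers summed to 8873 to 11802 in mural libraries, 6 erythroid markers to 13054 to 34038 in endothelial and 9021 to 11826 in neural libraries, and 5 border macrophage markers to 14920 to 18717 in microglial libraries. Whether these transcripts came from other cells or from the sorted cells themselves was not tested, and neither was their part in the SoxC levels.

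*Sox4* was highest in neural cells and present in all 4 populations. The neural libraries held 36401, 34692 and 36428 normalized counts. Mural libraries held 2179, 2702 and 2435, endothelial libraries 6159, 7428 and 6363, and microglia libraries 2607, 2967 and 1361. The neural libraries lay above all others and the endothelial libraries above the mural and microglia libraries, whereas mural cells and microglia overlapped. The population means were 35840 ± 995 (neural), 6650 ± 682 (endothelial) and 2439 ± 261 (mural), and 2312 ± 843 in microglial libraries (SD, n = 3 each). Endothelial cells thus held 18.6% of the neural level of *Sox4*, mural cells 6.80% and microglia 6.45%. On the log2(normalized count + 1) scale, neural cells were higher by 2.43 than endothelial cells, by 3.88 than mural cells and by 4.03 than microglia (SE 0.24 each).

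By normalized counts in bulk, not divided by length, *Sox11* was the SoxC gene with the highest level outside the neural population. Neural libraries held 39890, 37294 and 38911 normalized counts. Mural libraries held 17425, 23250 and 13511, endothelial libraries 13516, 13265 and 12307, and microglia libraries 4242, 4538 and 3186. No neural library overlapped another population and no microglia library did, while the lowest mural library fell below the highest endothelial library. Mural cells averaged 18062 ± 4901 and endothelial cells 13029 ± 638 (SD, n = 3 each). These values amount to 46.7% and 33.7% of the neural mean of 38699 ± 1311, against 10.3% in microglia (3989 ± 711). On the log2 scale, neural cells were higher by 1.13 than the mural, by 1.57 than the endothelial and by 3.29 than the microglial population (SE 0.18 each). The mural difference was 0.94 without the highest-numbered libraries and 1.36 without the middle ones.

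*Sox12* was low outside neural cells in the bulk libraries, with an intermediate level in endothelial cells. Neural libraries held 4944, 4955 and 5283 normalized counts. Mural libraries held 78.2, 91.3 and 78.0, endothelial libraries 191, 461 and 498, and microglia libraries 73.7, 128 and 29.0. The microglia values rested on 62, 108 and 23 reads, so they are less precise than the neural values, which rested on 3702 reads or more. Again endothelial cells lay above mural cells and microglia without overlap, and the mural values lay inside the microglia range. The population means were 5060 ± 192.8 (neural), 383 ± 167 (endothelial), 82.5 ± 7.64 (mural) and 76.9 ± 49.6 (microglial; SD, n = 3 each). Neural cells were higher by 3.84 than endothelial cells, by 5.92 than mural cells and by 6.26 than microglia (log2, SE 0.51 each).

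**Figure D1:**
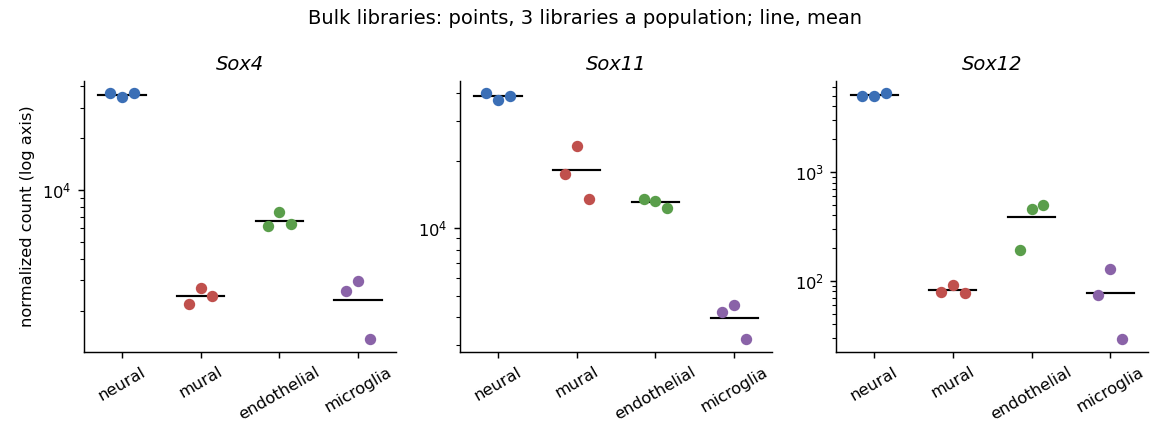
Normalized counts of *Sox4*, *Sox11* and *Sox12* in the bulk libraries of each population, on log axes that differ between panels, with 1 point per library and a line at the mean of 3. The neural libraries lie above all others for each gene, and only *Sox11* keeps at least 12307 normalized counts in every mural and endothelial library.

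Because the 3 transcripts differ in length, levels were also divided by exon length. In neural cells *Sox4* led with 7474 ± 207 normalized counts per kb of exon, ahead of *Sox11* with 4656 ± 158 and *Sox12* with 1136 ± 43.3 (SD, n = 3 each). In mural cells the order changed, with 2173 ± 590 per kb for *Sox11* and 509 ± 54.5 for *Sox4*. Endothelial cells held 1568 ± 76.8 per kb of *Sox11* and 1387 ± 142 of *Sox4*. In microglia the 2 genes were alike, at 480 ± 85.5 for *Sox11* and 482 ± 176 for *Sox4*. *Sox12* was the lowest of the 3 everywhere.

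To place these levels against RNA that belongs to neural cells, each SoxC gene was compared with 10 neuron markers and 7 neural progenitor markers as a percentage of the neural mean. In endothelial cells both *Sox4* and *Sox11* kept a larger percentage of their neural level than all 10 neuron markers, which ran from 0.342% to 10.4% with a median of 2.84%. *Sox11* also exceeded all 7 progenitor markers there and *Sox4* exceeded 6 of them. In mural cells *Sox11* exceeded all 10 neuron markers (0.742% to 15.3%, median 4.80%), but *Sox4* exceeded only 7 and *Sox12* only 4. Of the 7 progenitor markers in mural cells, *Sox4* exceeded 3 and *Sox12* 0. Some progenitor markers were themselves high in mural cells, led by *Fabp7*, a fatty acid binding protein of radial glia, with 354% of its neural mean, so 5 of 7 lay below *Sox11*. In microglia, *Sox4* and *Sox11* each exceeded 9 of the 10 neuron markers, whose range reached 14.6% through *Gap43*, a growth cone protein. *Sox12* exceeded only 2 of 10 in microglia. Of the 7 progenitor markers there, *Sox4* exceeded 4, *Sox11* 5 and *Sox12* 2. In endothelial cells *Sox12* exceeded 8 of 10 neuron and 5 of 7 progenitor markers. These comparisons are counts over chosen genes and carry no test.

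**Figure D2:**
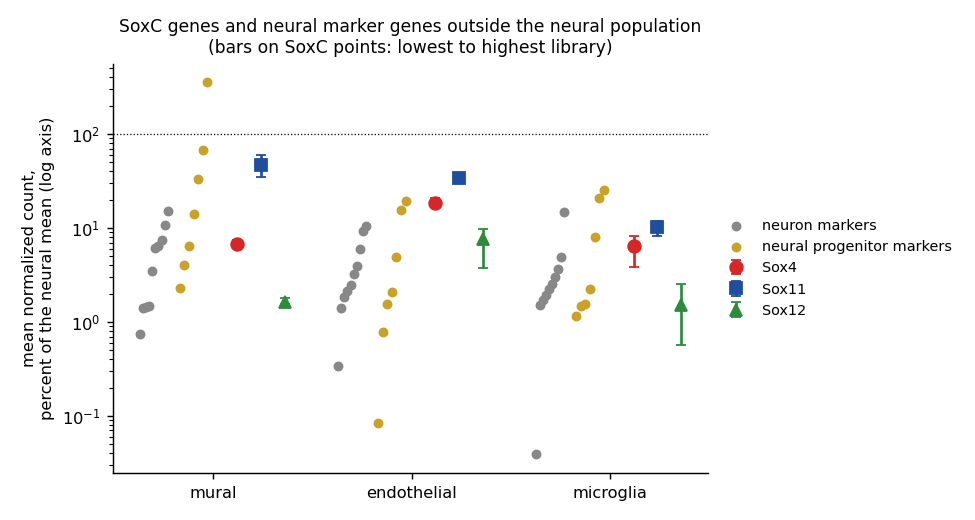
Mean level in mural cells, endothelial cells and microglia as a percentage of the neural mean (log axis) for the SoxC genes, with bars from the lowest to the highest library, and for 10 neuron and 7 neural progenitor markers, 1 point per gene. *Sox11* stands above every neuron marker in mural cells (46.7%) and endothelial cells (33.7%), whereas *Sox12* lies among the neuron markers in all 3 populations.

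The scRNA-seq made it possible to ask whether the same cells that carry mural, endothelial or microglia markers also carry SoxC transcripts. A cell was kept with more than 1500 transcripts. This left 123 of 197 wells of the neural gate, 210 of 295 of the mural gate, 225 of 368 of the endothelial gate and 128 of 134 of the microglia gate. By their highest marker list, 98.4% of neural gate cells, 92.9% of mural gate cells, 93.3% of endothelial gate cells and 100% of microglia gate cells matched their gate. The mural gate held 15 neural-like cells, 13 of them on plate 1, and the endothelial gate held 6. Plate 3 held few cells (14, 10, 13 and 6 in the order of the gates above). Libraries share the same set of designed barcodes, so shared barcodes do not mark shared cells.

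*Sox11* transcripts were most frequent in the neural gate and nearly missing in microglia. Plates 1, 2 and 3 held 2943, 4198 and 3013 CPM in the neural gate, where CPM is the level scaled to a common total of transcripts. The mural gate held 466, 284 and 192.3 CPM, the endothelial gate 447, 406 and 428, and the microglia gate 13.3, 17.1 and 39.4. Neural values lay above all others and microglia values below all others, while the mural and endothelial ranges overlapped. Summed over plates, neural cells held 3499 CPM (95% counting interval 3382 to 3619), endothelial cells 430 (399 to 463), mural cells 354 (325 to 385) and microglia 16.1 (10.1 to 24.3). Such intervals cover counting error only.

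The few neural-like cells held 209 of the 549 *Sox11* transcripts of the mural gate. These 15 cells stood at 2001 CPM, and the 195 mural-like cells of the gate 235 CPM (211 to 261), with 250.3, 229 and 192.3 CPM on plates 1 to 3. In the endothelial gate, 210 endothelial-like cells held 353 CPM (324 to 383) and the 6 neural-like cells 4045. In matched cells *Sox11* was therefore higher in endothelial than in mural cells on plates 1 and 2 (367 and 345.8 against 250.3 and 229) but not on plate 3, where 8 endothelial-like cells held 159 CPM.

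*Sox4* showed a smaller gap between populations in single cells. The neural gate held 969, 1337 and 789 CPM on plates 1 to 3. The mural gate held 333, 342.7 and 288, the endothelial gate 299, 266 and 214, and the microglia gate 48.8, 66.8 and 78.8. Here too neural values lay above and microglia values below all others, whereas the mural and endothelial ranges overlapped. Within each plate *Sox4* was higher in the mural than in the endothelial gate, the opposite of the order in bulk, where both populations went through the same kit. The sums were 1113 CPM (1048 to 1182) in neural, 336 (308 to 366) in mural, 283 (258 to 309) in endothelial cells and 58.4 (46.3 to 72.7) in microglia. *Sox12* was rare, with 119.6, 114 and 10.9 CPM in the neural gate. Its sums were 107 CPM (87.1 to 129) in neural, 19.2 (13.1 to 27.1) in endothelial, 10.3 (5.90 to 16.7) in mural cells and 3.65 (1.18 to 8.51) in microglia, where all 5 transcripts came from plate 2. The low neural value of *Sox12* on plate 3 overlapped the other gates.

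**Figure D3:**
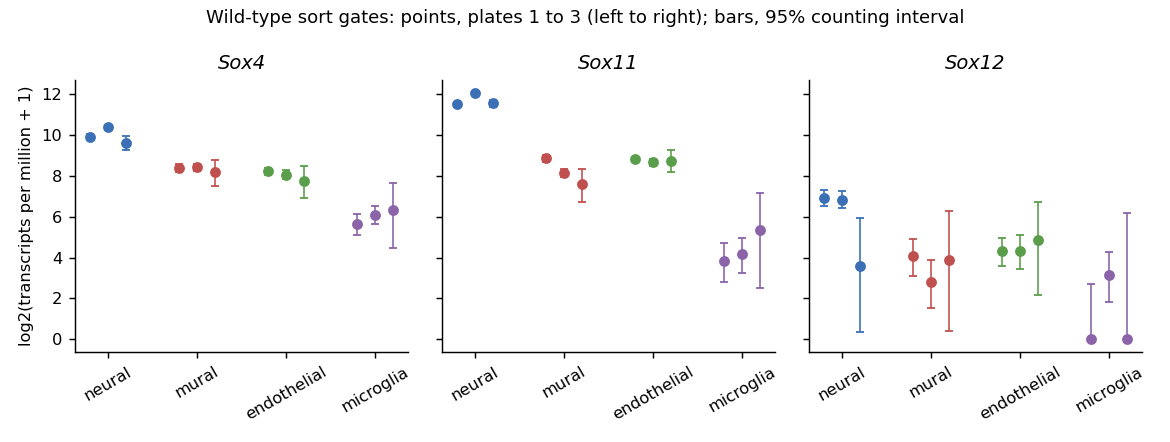
Levels of *Sox4*, *Sox11* and *Sox12* in wild-type cells by sort gate, as log2(CPM + 1), with plates 1 to 3 from left to right and bars for the 95% counting interval. *Sox4* and *Sox11* are highest in the 3 neural sums and lowest in the 3 microglia sums, while mural and endothelial values overlap.

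At the level of single cells, *Sox11* was found in 100% of 123 neural gate cells and *Sox4* in 93.5%. In cells that matched their gate, *Sox11* was found in 137 of 195 mural cells (70.3%, exact 95% interval 63.3 to 76.6) and 150 of 210 endothelial cells (71.4%, 64.8 to 77.4), and *Sox4* in 72.3% (65.5 to 78.5) and 69.0% (62.3 to 75.2). Microglia, which arise outside the brain, held *Sox11* in 14.8% of 128 cells (9.18 to 22.2) although their median depth of 10761 transcripts was above the 6885 of the mural gate and the 6408 of the endothelial gate. For *Sox4* the microglia share was 44.5% (35.8 to 53.6). With the depth of each cell reduced to 1500 transcripts, the share with *Sox11* was 93.1% in the neural gate, 27.5% in mural-like, 34.1% in endothelial-like cells and 2.04% in microglia. The share with *Sox4* was 71.4%, 34.3%, 31.8% and 8.34%, respectively. *Sox12* was found in 48.0% of neural gate cells, 11.9% of endothelial-like cells, 4.62% of mural-like cells and 3.12% of microglia.

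Barcodes that were not used in a library gave a reading of stray transcripts, here those assigned to a barcode without a well. On 1056 unused barcodes of the wild-type libraries, *Sox11* was found on 10.8% (8.99 to 12.8), *Sox4* on 2.84% (1.92 to 4.03) and *Sox12* on 0.379% (0.103 to 0.967). Weighted by library, this rate would give 23.5 *Sox11* transcripts over the microglia cells, where 22.0 were counted. In these single cells *Sox11* in microglia was thus at the level of stray transcripts. Bulk microglia libraries held 3989 ± 711 normalized counts of *Sox11* against 2312 ± 843 of *Sox4*, and this difference between the assays was not tested. The same rate would give 15.7 of the 549 *Sox11* transcripts of the mural gate and 39.2 of the 717 of the endothelial gate. For *Sox4* in microglia it would give 6.60 of 80.0 transcripts, and for *Sox12* 0.604 of 5 transcripts. *Sox4* in microglia was above this rate. Free RNA sorted into a well together with a cell is not read on unused barcodes, and its part was not tested.

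Cells without a transcript of any neuron marker were read separately. Progenitor markers were not used for this split. Of the 195 mural-like cells, 121 held no transcript of the 10 neuron markers, and these cells held 256 CPM of *Sox11* (222 to 293) and 312 of *Sox4* (275 to 352). The 74 other mural-like cells held 208 and 323 CPM. Of the 210 endothelial-like cells, 160 held no neuron marker, with 334 CPM of *Sox11* (300 to 369) and 250 of *Sox4* (221 to 280), against 401 and 331 CPM in the 50 others. *Sox11* was found in 70.2% of the mural-like and 67.5% of the endothelial-like cells without a neuron marker. In the 105 microglia without a neuron marker, *Sox4* was at 59.9 CPM and *Sox11* at 18.4. Cells without a neuron marker were also shallower, with a median of 6299 against 7616 transcripts in mural-like and 6094 against 8808 in endothelial-like cells, so a marker may have been missed in them.

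The SoxC genes were also read together in the same cells. Among mural-like cells 105 of 195 held both *Sox4* and *Sox11* (53.8%), 36 held only *Sox4*, 32 only *Sox11* and 22 neither. Endothelial-like cells gave a like picture, with both in 112 of 210 (53.3%), only *Sox4* in 33, only *Sox11* in 38 and neither in 27. Microglia differed, with both in 8 of 128 cells and only *Sox4* in 49. All 121 neural-like cells of the neural gate held *Sox11*, and 114 of them *Sox4* too. At these depths a missing transcript does not show that a cell lacks the gene.

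The ratio of *Sox11* to *Sox4* went in opposite directions in the 2 assays. In bulk it was 1.08 ± 0.0144 for the neural, 7.38 ± 1.62 for the mural, 1.97 ± 0.207 for the endothelial and 1.83 ± 0.443 for the microglial libraries (SD, n = 3 libraries each), so all 9 other libraries lay above the neural ones. In single cells it was 3.33 ± 0.424 in the neural gate, 0.966 ± 0.386 in the mural, 1.67 ± 0.284 in the endothelial and 0.343 ± 0.136 in the microglia gate (SD, n = 3 plates each), so all 9 other values lay below the neural ones. The microglia ratio rests on *Sox11* transcripts at the stray level given above. With only cells that matched their gate, the mural ratio was 0.733 ± 0.0988. The assays differ in the part of the transcript they read and in the kits used within bulk, and the part of either in the ratio was not tested.

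**Figure D4:**
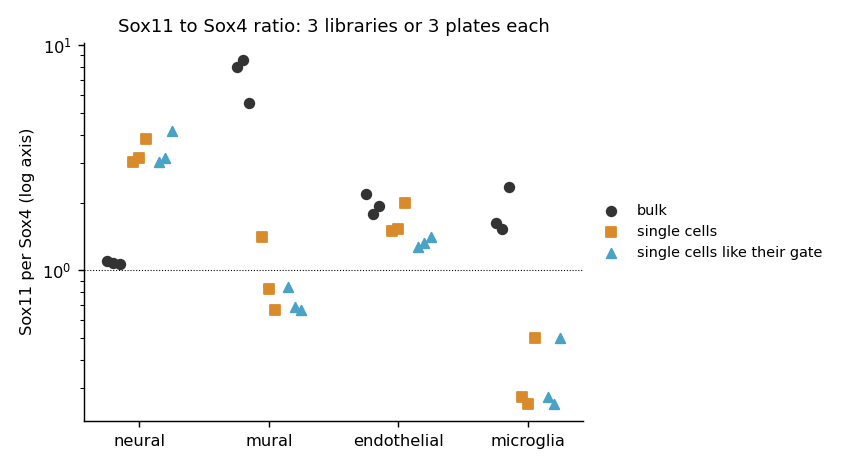
Ratio of *Sox11* to *Sox4* (log axis) by population in bulk libraries (normalized counts), in single cells by sort gate and in cells that match their gate (transcripts), with 1 point per library or plate. The neural ratio is the lowest in bulk (1.08) and the highest in single cells (3.33).

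Within the neural gate, SoxC levels followed the split between progenitors and young neurons. Cells were called neuron-rich or progenitor-rich after the higher of the 2 mean marker levels, a cut along a continuous range with 20 of 121 cells near it. *Sox11* stood at 3710, 5076 and 4280 CPM in neuron-rich cells of plates 1 to 3 against 1399, 1611 and 1205 CPM in progenitor-rich cells. *Sox4* stood at 1129, 1531 and 1127 against 655, 767 and 143 CPM. *Sox12* stood at 142, 133 and 18.4 against 74.9, 56.0 and 0 CPM. *Sox11* and *Sox4* were higher in neuron-rich cells on every plate and *Sox12* on plates 1 and 2. Plate 3 held only 10 neuron-rich and 3 progenitor-rich cells. *Sox12* rested there on 1 transcript against 0, and *Sox4* in the progenitor-rich cells on 5 transcripts. *Sox11* was nonetheless found in 100% of the progenitor-rich cells. Neural cells with 3 or more transcripts of dividing-cell markers held 2146 CPM of *Sox11* and 720 of *Sox4*, against 3942 and 1236 in those with fewer. In mural-like cells the same split gave 265 and 217 CPM of *Sox11* and 278 and 340 of *Sox4*, so that a lower *Sox11* in dividing cells was not seen there.

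The other Sox genes and a list of genes upstream or downstream of SoxC factors were tested in bulk with limma on log2(normalized count + 1), with Benjamini-Hochberg adjustment over 19765 genes. Of 16 other Sox genes 13 were tested. Against mural cells 8 were higher in neural cells and 1 lower, where 28.7% of all genes were higher and 25.8% lower. Against endothelial cells 8 were higher and 3 lower (30.6% and 27.1% of all genes), and against microglia 10 were higher and 0 lower (30.4% and 29.3% of all genes). Against microglia 0 were lower at an unadjusted p under 0.05 too, and edgeR also called 0 lower, but *Sox7*, *Sox17* and *Sox18* averaged at most 6.79 normalized counts in both populations and could hardly be called there. *Sox1* and *Sox2*, SoxB1 factors of neural progenitors, were higher in neural cells than in mural cells by 4.55 ± 0.73 and 4.01 ± 0.90 (log2 difference ± SE, limma adjusted p = 3.4e-04 and 0.00305), and *Sox2* lost this call without the highest-numbered libraries (adjusted p = 0.060). *Sox1* was listed at 0 in all endothelial libraries. The 3 genes lower in neural than in endothelial cells were *Sox7*, *Sox17* and *Sox18*, the SoxF factors of endothelium, with log2 differences of -10.75, -12.38 and -7.74. Without the lowest-numbered libraries the count higher than in mural cells was 5 instead of 8, without either of the others it was 6, with quantile normalization 5 and with the brain as a block 7, while the lower call of *Sox17* against mural cells (-4.19 ± 1.24, limma adjusted p = 0.014) was lost without the lowest-numbered (adjusted p = 0.17) or the highest-numbered libraries (adjusted p = 0.16).

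Among 12 genes of the SoxC pathway, 10 were higher and 1 lower in neural than in mural cells, 9 and 1 against endothelial cells, and 11 and 1 against microglia. Over all genes the shares higher and lower were 28.7% and 25.8%, 30.6% and 27.1%, and 30.4% and 29.3%, respectively. *Tubb3*, *Dcx*, *Map2* and *Hes5* of this list are also neuron or progenitor markers here, so a higher neural level was built into their choice. Like the other Sox genes, the list was chosen with earlier results of these data known, so its calls are a description. The targets *Tubb3*, a neuronal tubulin, and *Dcx*, a microtubule-binding protein of migrating neurons, were higher in neural than in mural cells by 4.87 ± 0.27 and 6.30 ± 0.43 (log2 difference ± SE, limma adjusted p = 1.6e-07 and 6.9e-07). The proneural factor *Neurog2*, which acts upstream of SoxC genes, was higher by 5.35 ± 1.38 (limma adjusted p = 0.0072). It lost its call against mural cells without the middle-numbered libraries (adjusted p = 0.061). *Tead2*, a Hippo pathway factor described as a SoxC target, was called against mural cells at 0.92 ± 0.35 but lost the call without the lowest-numbered or the middle-numbered libraries (adjusted p = 0.15 and 0.28) or with the brain as a block (adjusted p = 0.073), and was not called against endothelial cells (0.54 ± 0.35, adjusted p = 0.21). *Rest*, a repressor of neuronal genes in other cells, was the gene lower in neural cells in each comparison, with log2 differences of -1.83, -2.48 and -1.38 against mural cells, endothelial cells and microglia. In mural and endothelial cells *Sox11* was measured with *Rest* above its neural level and *Tubb3* and *Dcx* at a few percent of theirs. *Rest* was also above its neural level in microglia, where *Sox11* was lowest. A link between *Rest*, *Sox11* and these targets was not tested, and population and library kit cannot be told apart here.

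Over the 12 bulk libraries the patterns of *Sox4* and *Sox12* were most alike (Pearson r = 0.99 of log2 values), and *Sox11* stood apart from both (r = 0.78 with each). Among the 5 genes most like *Sox4* were *Sox12*, *Stox2*, *Adgrl1* and *Slc10a4*, with r from 0.98 to 0.99. Among those most like *Sox12* were *Sox4*, *Stox2*, *Enc1* and *D430019H16Rik*, and those most like *Sox11* were *Bcl7c*, *Enah*, *Guf1*, *Thra* and *Ilf2*, with the same range of r. The libraries share kits by population, so these values are a description.

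The plates labelled Mof knockout were among the data on which the 3 genes were chosen, so their SoxC values are a description as well. *Kat8*, which encodes the histone acetyltransferase MOF, was read first. In neural-like cells it stood at 5.06, 7.65 and 27.6 CPM on knockout plates 4, 5 and 6 (3, 7 and 7 transcripts) against 24.7, 28.9 and 10.4 CPM on wild-type plates 1, 2 and 3. Plate 6 lay within the wild-type range, and the 2 sides overlapped. The log2 difference was -1.13 ± 0.61 (SE, edgeR adjusted p = 0.91). Whether the part of the transcript that was read lies in the deleted part is not known, so *Kat8* does not check the labels. The plates also differed in the cells they held. Besides neural-like cells, plate 4 held mostly mural-like, plate 5 mostly microglia-like and plate 6 mostly endothelial-like cells, so genotype, plate and sort cannot be told apart.

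Neural-like cells numbered 82, 60 and 15 on wild-type plates 1 to 3 and 61, 112 and 37 on the plates labelled knockout. *Sox11* stood at 2559, 3965 and 3075 CPM on the wild-type plates and at 789, 2806 and 4322 on plates 4, 5 and 6. *Sox4* stood at 817, 1233 and 772 against 305, 1002 and 907 CPM, and *Sox12* at 103, 99.1 and 20.8 against 74.2, 152 and 102 CPM. The 2 sides overlapped for each gene, and plate 4 was the lowest of all for *Sox11* and *Sox4*. The log2 differences, knockout minus wild-type, were -0.35 ± 0.49 for *Sox11*, -0.39 ± 0.40 for *Sox4* and 0.44 ± 0.41 for *Sox12* (SE, edgeR fit). Of 7510 genes tested edgeR called 0 higher (0.00%) and 0 lower (0.00%), with 341 at an unadjusted p under 0.05, and DESeq2 called 2 higher and 2 lower.

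Plate 4 differed from the others in its makeup. Of its neural-like cells 96.7% were progenitor-rich, against 26.7% to 47.6% on the other 5 plates. Its neuron markers summed to 479 CPM and its progenitor markers to 9063, whereas neuron markers on the other plates summed to 2731 to 4904. Mural markers in these cells summed to 506 CPM, against 52.1 to 187 on the other plates. The progenitor list includes *Fabp7*, which stood at 354% of its neural mean in bulk mural cells. The part of mural RNA in this class was not tested. Without plate 4 the *Sox11* difference was 0.08 ± 0.25. Within progenitor-rich cells *Sox11* stood at 1023, 1401 and 1145 CPM on plates 1 to 3 and 678, 1009 and 1770 on plates 4 to 6. These are cells of any gate. On plate 1 they numbered 39, and the 19 of them from the neural gate stood at 1399 CPM. Within neuron-rich cells it stood at 3863, 5118 and 4419 against 4719 and 5410 on plates 5 and 6, where plate 4 held only 2 such cells. Restricted to progenitor-rich cells, the differences were -0.22 ± 0.38 for *Sox11*, -0.06 ± 0.40 for *Sox4* and 0.93 ± 0.50 for *Sox12*. Restricted to neuron-rich cells without plate 4, the differences were 0.17 ± 0.19 for *Sox11*, 0.06 ± 0.23 for *Sox4* and 0.54 ± 0.33 for *Sox12*.

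**Figure D5:**
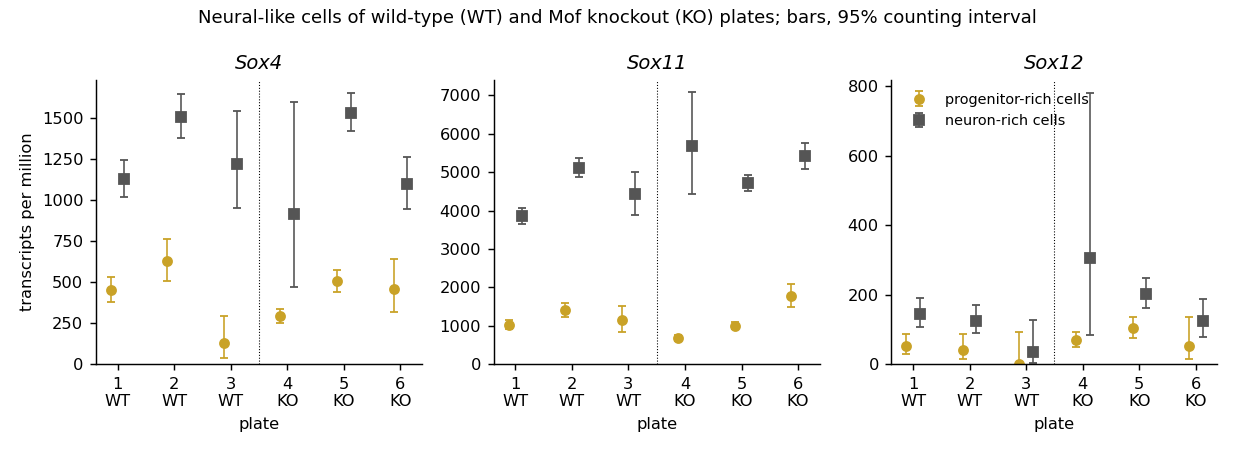
CPM of *Sox4*, *Sox11* and *Sox12* in neural-like cells of plates 1 to 3 (wild-type) and 4 to 6 (labelled Mof knockout), split into progenitor-rich and neuron-rich cells, with bars for the 95% counting interval. Neuron-rich cells lie above progenitor-rich cells of the same plate for each gene, and plate 4 has only 2 neuron-rich cells. The *Sox12* intervals of these cells overlap on plates 3, 4 and 6.

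Outside the neural lineage each class of cells on the plates labelled knockout came almost wholly from 1 plate, so values stand side by side without a test. *Kat8* stood at 14.8 CPM (10.2 to 20.7) in mural-like cells of plate 4, 8.67 (4.85 to 14.3) in endothelial-like cells of plate 6 and 13.9 (6.91 to 24.8) in microglia-like cells of plate 5, against 15.7, 13.5 and 15.1 CPM in the wild-type classes. The 275 mural-like cells of plate 4 held 232 CPM of *Sox11* (213 to 253), 286 of *Sox4* (265 to 309) and 10.3 of *Sox12* (6.52 to 15.4). The 302 endothelial-like cells of plate 6 held 341 (314 to 370), 226 (204 to 249) and 20.2 CPM (14.1 to 28.1). The 81 microglia-like cells of plate 5 held 58.0 (42.4 to 77.3), 103 (82.1 to 128) and 3.78 CPM (0.779 to 11.04). On the 1152 unused barcodes of the knockout libraries *Sox11* was found on 12.5%, against 29.6% of these microglia-like cells, and the part of stray transcripts was not tested there. *Sox11* was higher in these endothelial-like than in these mural-like cells, as on wild-type plates 1 and 2 but not on plate 3, and lowest in microglia-like cells, and *Sox4* exceeded *Sox11* in mural-like and microglia-like but not in endothelial-like cells.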

How the data were processed

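Bulk RNA-seq of 12 libraries and mCEL-Seq2 of 23 single-cell libraries were used. Per the submitters' processing notes, BWA (0.6.2-r126), STAR, featureCounts, DESeq2 and mm10 were used; which tool served which step is not given in the sources used here. The authors deposited bulk normalized counts, a signal from which whole reads were recovered (100% of 124078 values up to 100 reads were whole within 0.01). For single cells the authors deposited expected transcript counts, a transform of molecular identifier counts, kept on their own scale (unit other), with the sort gate of each wild-type well.

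Genes were named with GENCODE vM21 (53274 of 53465 matched). Bulk populations were compared with limma 3.58.1 (R 4.3.3) on log2(normalized count + 1), mean at least 10, all 12 libraries, no block. Sums of neural-like cells per plate were rounded and compared with edgeR 4.0.16 (TMM). Calls needed an adjusted p (Benjamini-Hochberg) under 0.05, two-sided. Per the study's text, bulk libraries came from 3 wild-type brains, from which the 4 populations were collected together, and wild-type single cells from 3 independent brains. Same-numbered bulk libraries were therefore taken as 1 brain, although no label says so (residual correlations between same-numbered libraries -0.0540 to 0.0801 over 18 pairs). No source ties a plate to a brain, so p-values between plates may measure technical spread. Cells took the class of the list with the highest mean log2(transcripts per 10000 + 1). Intervals are exact (95%, Poisson or Clopper-Pearson). Wells hold 1 cell by sorting, and no doublet caller was run. Thinned shares are expected values under random draws of 1500 transcripts. DESeq2 1.42.0 was an alternative. Both test scripts were tested on simulated data. Python 3.11.15 and matplotlib 3.10.9 were used.

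The 3 genes, the marker lists and the other lists were chosen with earlier results of these data known. Named genes are the SoxC genes, 16 other Sox genes, 12 pathway genes, the 5 genes most like each SoxC gene and *Kat8*; *Fabp7*, *Gap43* and *Gm26735* were named after their values were seen. Some of these genes are left out of the text. Wells of other gates or of no gate were used only where a class was summed over all wells of a plate, whatever the gate (the neural-like sums and *Kat8* in each class).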

Additional observations from a re-analysis of the deposited data

Results flagged for a closer look

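The ratio of *Sox11* to *Sox4* moved one way from neural cells to each other population in bulk and the other way in single cells. In bulk the mean log2 ratio minus that of neural libraries was 2.75 (mural), 0.86 (endothelial) and 0.74 (microglial), and every one of the 3 libraries per population was above the neural mean. On the single-cell plates it was -1.85, -1.0 and -3.34, and every one of the 3 plates per population was below. The microglial value rests on 22.0 *Sox11* transcripts, where the unused barcodes would give 23.5. The difference between the assays was not tested.

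Transcripts of the SoxC genes were also present on barcodes that no well of a wild-type library used. At least 1 transcript was found on 10.8% of these barcodes for *Sox11*, 2.84% for *Sox4* and 0.379% for *Sox12*.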

How the results depend on the processing

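The direction of all 9 bulk differences between neural cells and another population, for the 3 SoxC genes, was kept under every alternative run. Quantile normalization, which lowered the median difference over all genes against mural cells from 0.13 to -0.08, gave 4.44, 3.05 and 4.68 for *Sox4* and 1.86, 2.29 and 4.05 for *Sox11* against mural cells, endothelial cells and microglia. A pseudocount of 10 gave 5.78 for *Sox12* against mural cells. Over the libraries left out in turn, no SoxC difference moved beyond the spread between libraries. With the brain as a replicate block, genes higher and lower in neural cells were 5584 and 4950 against mural cells, 5968 and 5221 against endothelial cells and 5916 and 5668 against microglia, and the calls of *Sox6* (adjusted p = 0.060) and *Tead2* (adjusted p = 0.073) against mural cells were lost, with no other list gene losing its call. Quantile normalization lowered the other Sox genes called higher than in mural cells from 8 to 5. edgeR on the recovered reads, added after seeing the data, called 4941 and 5450, 5140 and 5612, and 5388 and 5841. In the knockout comparison the 0 calls became 2 higher and 2 lower with DESeq2, 72 higher and 18 lower with no filter on low counts, 2 lower in neuron-rich cells only, and ranged from 0 to 1 lower when each plate was left out. The sign turned for *Sox4* (0.057) and *Sox11* (0.17) in neuron-rich cells, an alternative added after seeing the data. Leaving out each plate gave *Sox11* differences from -0.83 to 0.080. Of the CPM by gate, *Sox11* in the endothelial gate was 406 with more than 3000 transcripts and 353 in matched cells only, and 408 to 445.5 when a plate was left out, and *Sox12* in the mural gate ranged from 6.53 to 15.6. *Sox11* in the mural gate ranged from 277 to 438 when a plate was left out, and was also lower in matched cells only, as given above. All 12 shares of cells fell on thinning. Few transcripts limit *Sox12* in microglia, where 5 were counted, and leaving out a plate gave 0 to 7.20 CPM there.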
